A study of Mus musculus with 32 samples.

Results

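The comparison described here set the gastrocnemius of mice labelled as lacking both Acvr1b and Tgfbr1 in their myofibres against the gastrocnemius of mice labelled as lacking Tgfbr1 alone. It used 8 of the 32 libraries of the study, 4 per group, chosen by the genotype and the muscle in the labels. All genes were described, and 17536 of the 55487 genes in the deposited table passed the filter on low counts. The question it addresses is what loss of Acvr1b adds to a muscle from which Tgfbr1 has already been removed.

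The 4 double-knockout muscles came from mice with deletion of Acvr1b and Tgfbr1, and the 4 muscles labelled Tgfbr1 KO from mice with deletion of Tgfbr1 only. The same study held 4 Acvr1b-knockout and 4 control gastrocnemii, which shared 1 fit with these 8 libraries, and the soleus of every mouse. Deletion was induced with tamoxifen, and the labels give an age at knockout of 6 weeks for every group, controls included. Muscles of the left leg were taken 3 months later: the soleus, rich in slow fibres, and the medial gastrocnemius, rich in fast fibres. Deletion was restricted to myofibres, per the labels, so the vessel, nerve, immune and connective cells of the whole muscle kept both genes. The promoter that drove the recombinase, the strain, the sex and the treatment of the control mice are not given in the sources used here. Each library came from its own mouse, so the replicate spread below is a spread between animals. The 4 double-knockout mice carry animal numbers outside the range of the 12 others, and an effect of cohort cannot be told apart from one of genotype.

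Acvr1b encodes ALK4, the type I receptor through which activins, myostatin and GDF11 signal. Tgfbr1 encodes ALK5, the type I receptor of the TGF-beta ligands, which myostatin and GDF11 can also use. A ligand joins a type II receptor to a type I receptor, and the type I kinase phosphorylates SMAD2 and SMAD3, which enter the nucleus with SMAD4. In adult skeletal muscle this branch restrains fibre size, and loss of myostatin signalling is known for large muscles, while the bone morphogenetic protein (BMP) branch through SMAD1, SMAD5 and SMAD9 is known to favour growth.

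Total counts per library ran from 28984273 to 40725427 in the double knockout and from 16535498 to 54456977 in muscles labelled Tgfbr1 KO, where replicate 1 was the shallowest. Levels below are CPM, counts expressed relative to library size after TMM scaling. Fold changes are log2 of double knockout over Tgfbr1 KO, and a gene is called where the adjusted p of edgeR's quasi-likelihood test fell under 0.05. Principal components of the 16 gastrocnemius libraries were computed on only the genes that varied most among them. On the leading component, which carried 43% of the variance of those genes, the double knockouts lay between 25.53 and 29.66. The muscles labelled Tgfbr1 KO lay between −9.99 and 1.69. A pair of libraries stood apart from their own groups. Double knockout replicate 1 had rank correlations of 0.9798 to 0.9841 with its 3 companions, which reached 0.9923 to 0.9948 among themselves. Tgfbr1 KO replicate 1 had rank correlations of 0.983 to 0.9873 with its companions, against 0.9871 to 0.9918 among the others. Many results that rest on either library are given with and without it.

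The targeted genes were read first. Acvr1b (chromosome 15, 101174067 to 101213684 in GRCm38) had 22.01, 15.7, 12.9 and 14.3 CPM in the double knockout, against 96.9, 63.95, 80.6 and 70.5 CPM in muscles labelled Tgfbr1 KO. The groups did not overlap, and the fall (log2 fold change −2.27, SE 0.152, adjusted p = 6.87e-08) left a remainder in every double-knockout library. Acvr1b averaged 23.6 ± 1.69 CPM in the Acvr1b knockout and 97.6 ± 8.05 CPM in controls (SD, n = 4 each). Tgfbr1 (chromosome 4, 47353222 to 47414931) had 53.1, 45.1, 43.6 and 35.2 CPM in the double knockout, against 29.7, 27.9, 28.4 and 22.3 CPM in muscles labelled Tgfbr1 KO. Every double-knockout value lay above every value of the other group (log2 fold change 0.71, SE 0.1601, adjusted p = 0.00765), and the muscles labelled Tgfbr1 KO did not fall below the controls, which averaged 26.2 ± 6.56 CPM (log2 fold change 0.05, adjusted p = 0.999). The deposited counts are per gene, and the deleted exons are not given in the sources used here, so these counts do not check the Tgfbr1 label. Every direction below therefore rests on the label.

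The muscle label was read from the myosin heavy chains. Myh4, the fast IIb myosin, averaged 51909 ± 3069 CPM in double-knockout gastrocnemius and 67258 ± 4834 CPM in gastrocnemius labelled Tgfbr1 KO (SD, n = 4 each). The highest soleus value of Myh4 in those 8 mice was 9164 CPM. Myh7, the slow myosin, had 300.1, 456, 405 and 401 CPM in double-knockout gastrocnemius, against 509, 585, 709 and 666 CPM in gastrocnemius labelled Tgfbr1 KO. Every soleus of these mice held at least 4705 CPM of Myh7, so both genes matched the muscle named in the labels.

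In the double knockout, the acetylcholine receptor gene Chrne, the calcium pump inhibitor gene Sln and the ligand gene Gdf11 were higher than in muscles labelled Tgfbr1 KO, by 2.62 (SE 0.112), 4.29 (SE 0.383) and 1.48 (SE 0.126) on the log2 scale, with 4 muscles per group. Slow-fibre contractile genes such as Tnnt1 (log2 fold change −0.82, SE 0.147) and the endothelial gene Pecam1 (−0.45, SE 0.0691) were lower. In all, 2255 of the 17536 genes tested were called (12.9%). Of these, 1304 were higher in the double knockout (7.44% of the genes tested) and 951 were lower (5.42%). The change exceeded 1 on the log2 scale for 389 higher and 143 lower genes, and stayed under 0.5 for 866 called genes. The double-knockout libraries lay wholly above or wholly below those labelled Tgfbr1 KO for 1896 of the called genes (84.1%), against 3008 of all tested genes (17.2%). For 1454 called genes (64.5%) the 4 double-knockout values also lay outside all 12 other gastrocnemius libraries, against 1803 of all tested genes (10.3%). Without double knockout replicate 1 and Tgfbr1 KO replicate 1 together, 1900 genes were called.

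Loss of Acvr1b alone gave a far smaller list. Acvr1b knockout against control called 5 genes (0.0285%), 2 higher (0.0114%) and 3 lower (0.0171%), and all 5 were also called, in the same direction, in double knockout against Tgfbr1 KO. These 5 were Acvr1b itself and 4 genes within 5 Mb of it on chromosome 15. The unadjusted p fell under 0.05 for 775 genes in that comparison and for 4566 in double knockout against Tgfbr1 KO. Genes higher in the double knockout had a median log2 fold change of 0.695 over Tgfbr1 KO and of 0.046 in Acvr1b knockout over control. A log2 rise past 0.5 was seen for 912 of these 1304 genes in double knockout over Tgfbr1 KO and for 70 in Acvr1b knockout over control. Lower genes had a median of −0.502 over Tgfbr1 KO and of −0.0533 in Acvr1b knockout over control, and 477 of the 951 passed a log2 fall of 0.5 over Tgfbr1 KO, against 36 in Acvr1b knockout over control. These genes were chosen on the double knockout against Tgfbr1 KO, so the comparisons do not meet on equal terms. The difference between these comparisons was itself tested as a departure from additivity, which called 376 genes (2.14%), 259 positive (1.48%) and 117 negative (0.667%). Leaving out 1 library gave 232 to 548 such genes: 548 without control replicate 1, and 232 to 249 without Acvr1b KO replicate 1, 2 or 3, double knockout replicate 3, Tgfbr1 KO replicate 2 or control replicate 3. Acvr1b knockout against control called 9 genes without Acvr1b KO replicate 1 and 3 without Acvr1b KO replicate 2, 3 or 4 or control replicate 2, 3 or 4.

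**Figure D1:**
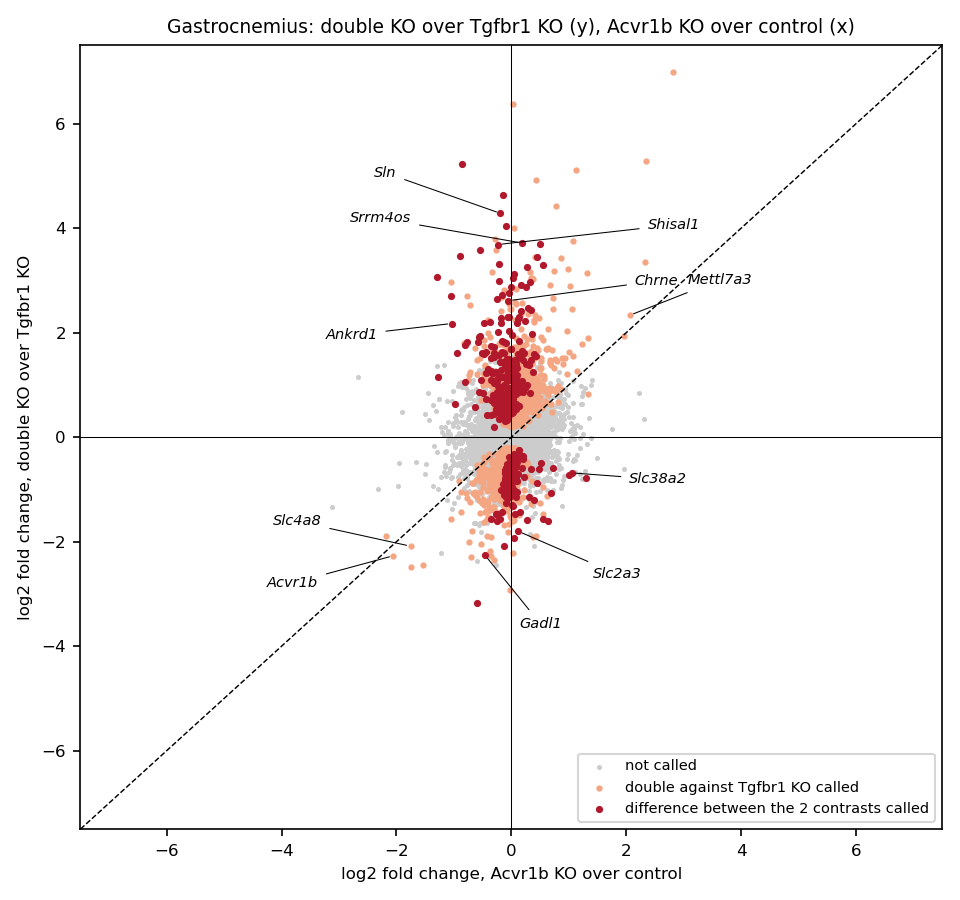
Each point is a gene; the y axis gives the log2 fold change of double knockout over Tgfbr1 KO and the x axis that of Acvr1b knockout over control, and the dashed line marks equal change. The 376 genes whose difference between the contrasts was called, in dark red, lie off the dashed line, while Acvr1b and its neighbours Slc4a8 and Mettl7a3 lie near the dashed line.

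Among genes with a full symbol whose groups were fully separate and whose higher mean reached 5 CPM, the largest rise was that of Sln, which encodes sarcolipin, the small inhibitor of the sarcoplasmic reticulum calcium pump. Sln (chromosome 9, 53850164 to 53854560) had 7.64, 25.7, 21.01 and 24.7 CPM in the double knockout, against 0.853, 1.11, 0.465 and 1.41 CPM in muscles labelled Tgfbr1 KO. All 4 double knockouts lay above the other group, and replicate 1 was the lowest of them (log2 fold change 4.29, SE 0.383, adjusted p = 2.28e-06). Sln also departed from additivity (by 4.48 on the log2 scale, adjusted p = 4.68e-04). Npr3, the clearance receptor for natriuretic peptides, had 42.8, 28.5, 31.4 and 26.1 CPM in the double knockout, against 2.74, 4.09, 5.01 and 4.98 CPM in muscles labelled Tgfbr1 KO. The lowest double knockout lay well above the highest value of the other group (log2 fold change 2.91, SE 0.196, adjusted p = 6.87e-08).

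Shisal1 had 7.27, 9.67, 6.71 and 7.81 CPM in the double knockout, against 0.244, 0.538, 0.894 and 0.6502 CPM in muscles labelled Tgfbr1 KO (log2 fold change 3.69, SE 0.213, adjusted p = 1.40e-08). Shisal1 lies within 20 Mb of Acvr1b on chromosome 15, and it departed from additivity (by 3.92 on the log2 scale, adjusted p = 1.23e-05). Katnal2, a subunit related to the microtubule-severing katanins, had 9.34, 9.61, 8.57 and 9.401 CPM in the double knockout, against 0.487, 0.807, 1.04 and 0.471 CPM in the other group (log2 fold change 3.695, SE 0.222, adjusted p = 2.15e-08). The double knockouts of both genes were tightly grouped, and separation from the muscles labelled Tgfbr1 KO was a condition for naming them. Kif5c, a kinesin heavy chain that carries cargo along microtubules, averaged 6.28 ± 1.88 CPM in the double knockout and 0.615 ± 0.239 CPM in muscles labelled Tgfbr1 KO (SD, n = 4 each; log2 fold change 3.26, SE 0.306, adjusted p = 3.99e-06). Gstt3, a glutathione transferase, averaged 5.498 ± 1.61 CPM in the double knockout and 0.682 ± 0.253 CPM in Tgfbr1 KO muscles (log2 fold change 3.06, SE 0.242, adjusted p = 7.06e-07), and Cyp4f39, a cytochrome P450, 13.1 ± 1.76 CPM in the double knockout and 1.61 ± 0.4501 CPM in Tgfbr1 KO muscles (log2 fold change 2.98, SE 0.256, adjusted p = 1.57e-06). Srrm4os, annotated as an antisense transcript, averaged 30.4 ± 6.22 CPM in the double knockout and 2.22 ± 0.638 CPM in Tgfbr1 KO muscles (log2 fold change 3.72, SE 0.241, adjusted p = 5.40e-08), and Fam174b was the most variable of the group, with 2.31, 18.98, 9.84 and 11.9 CPM in the double knockout, against 2.01, 2.04, 0.715 and 0.762 CPM in muscles labelled Tgfbr1 KO (log2 fold change 2.99, SE 0.472, adjusted p = 5.53e-04). Its double-knockout replicate 1 lay just above the other group.

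A further set of rises was led by replicate 1 of the double knockout, which lay far from its 3 companions in 21 of the genes listed or named. Gadd45a, a stress gene that also marks denervated fibres, had 308, 69.6, 72.01 and 63.96 CPM in the double knockout, against 15.5, 21.2, 15.5 and 25.2 CPM in muscles labelled Tgfbr1 KO. Replicate 1 was far above its companions, which were themselves above the whole other group, and the log2 fold change was 2.72 with that library and 1.81 without it (adjusted p = 4.20e-04 and 5.74e-06). Uchl1, a ubiquitin hydrolase abundant in neurons, had a log2 fold change of 2.87 with replicate 1 and 2.25 without it. Plekhh1 had 2.83 and 1.77, and Kcnn3, which encodes a small-conductance calcium-activated potassium channel, 3.12 and 2.58. Rrad, a small GTPase that restrains calcium channels, had 2.7 and 2.096. These 4 genes stayed called without replicate 1, but Rrad lost its call when Tgfbr1 KO replicate 1 was left out as well (adjusted p = 0.0646).

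**Figure D2:**
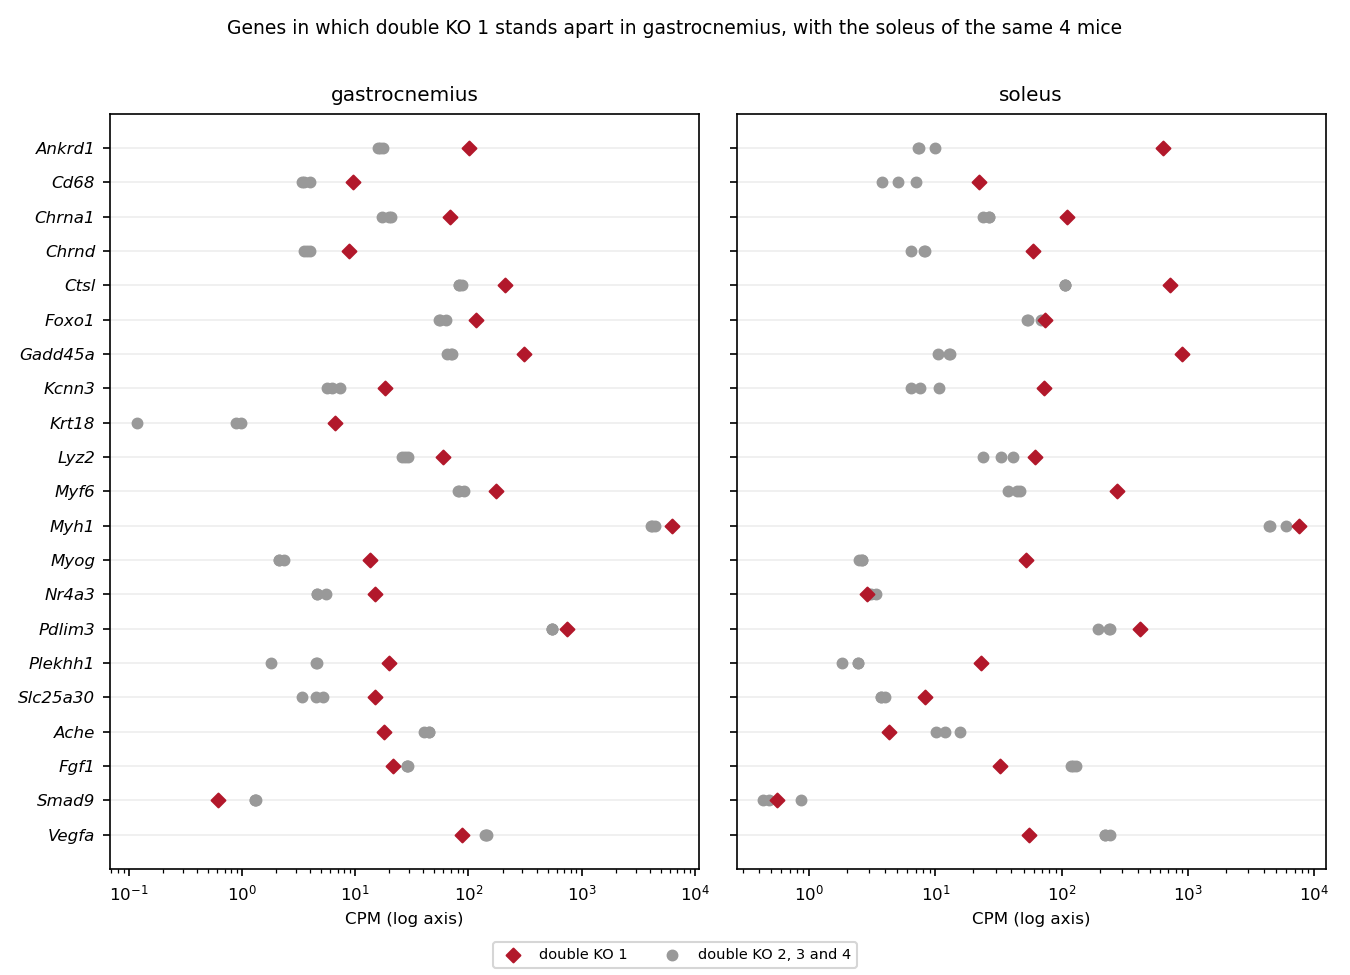
Level in CPM on a log axis of the 21 genes in which double knockout replicate 1 stood apart from the other double knockouts in gastrocnemius (left), with the soleus of the same 4 mice (right). Diamonds mark replicate 1 and circles replicates 2 to 4; in 18 of the 20 genes with a soleus value, replicate 1 lay at the same end in soleus.

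Among the genes that fell, apart from Acvr1b itself, Gadl1 carried one of the tightest differences. Gadl1, a decarboxylase that makes beta-alanine, the precursor of carnosine, had 2.62, 3.32, 2.93 and 3.71 CPM in the double knockout, against 13.6, 15.1, 16.2 and 15.2 CPM in muscles labelled Tgfbr1 KO. The groups were far apart relative to their spread (log2 fold change −2.25, SE 0.119, adjusted p = 4.94e-09). Slc2a3, the glucose transporter GLUT3, had 3.02, 3.19, 3.83 and 3.76 CPM in the double knockout, against 15.8, 10.3, 13.2 and 9.55 CPM in the other group (log2 fold change −1.8, SE 0.156, adjusted p = 1.67e-06). Cdhr3, a cadherin family member, had 0.678, 4.64, 2.67 and 6.11 CPM in the double knockout, against 25.3, 19.3, 18.8 and 10.3 CPM in muscles labelled Tgfbr1 KO, with wide spread in both (log2 fold change −2.35, SE 0.402, adjusted p = 0.00105). Slc30a2, a zinc transporter, averaged 8.72 ± 3.001 CPM in the double knockout and 36.97 ± 0.694 CPM in the other group (log2 fold change −2.09, SE 0.222, adjusted p = 1.43e-05). Odf3l2 averaged 20.6 ± 5.35 CPM in the double knockout and 78.5 ± 29.6 CPM in Tgfbr1 KO muscles (log2 fold change −1.93, SE 0.323, adjusted p = 9.07e-04). Ostn, which encodes the muscle-secreted peptide musclin, averaged 5.22 ± 0.941 CPM in the double knockout and 17.96 ± 5.06 CPM in Tgfbr1 KO muscles (log2 fold change −1.79, SE 0.273, adjusted p = 4.05e-04), and Npr3, the receptor that clears natriuretic peptides and binds musclin, rose as given above.

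Other falls were smaller in size. Stc1, the secreted glycoprotein stanniocalcin, averaged 6.51 ± 1.82 CPM in the double knockout and 19.04 ± 5.17 CPM in muscles labelled Tgfbr1 KO (SD, n = 4 each; log2 fold change −1.55, SE 0.292, adjusted p = 0.00225). Tmem100 averaged 2.39 ± 0.711 CPM in the double knockout and 7.11 ± 1.28 CPM in Tgfbr1 KO muscles (log2 fold change −1.57, SE 0.236, adjusted p = 3.80e-04). Fbp2, the muscle fructose bisphosphatase, averaged 10.2 ± 2.01 CPM in the double knockout and 28.2 ± 3.45 CPM in Tgfbr1 KO muscles (log2 fold change −1.46, SE 0.14001, adjusted p = 4.96e-06). Slc25a30, a mitochondrial carrier, had a log2 fold change of −1.42, or −2.08 without double knockout replicate 1. Within that group replicate 1 was the highest library for Slc25a30, and the call was lost without double knockout replicate 2, 3 or 4 or Tgfbr1 KO replicate 1, 2, 3 or 4 (adjusted p = 0.056 to 0.103). Full separation of the 2 groups of libraries was a condition for naming these falls.

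**Figure D3:**
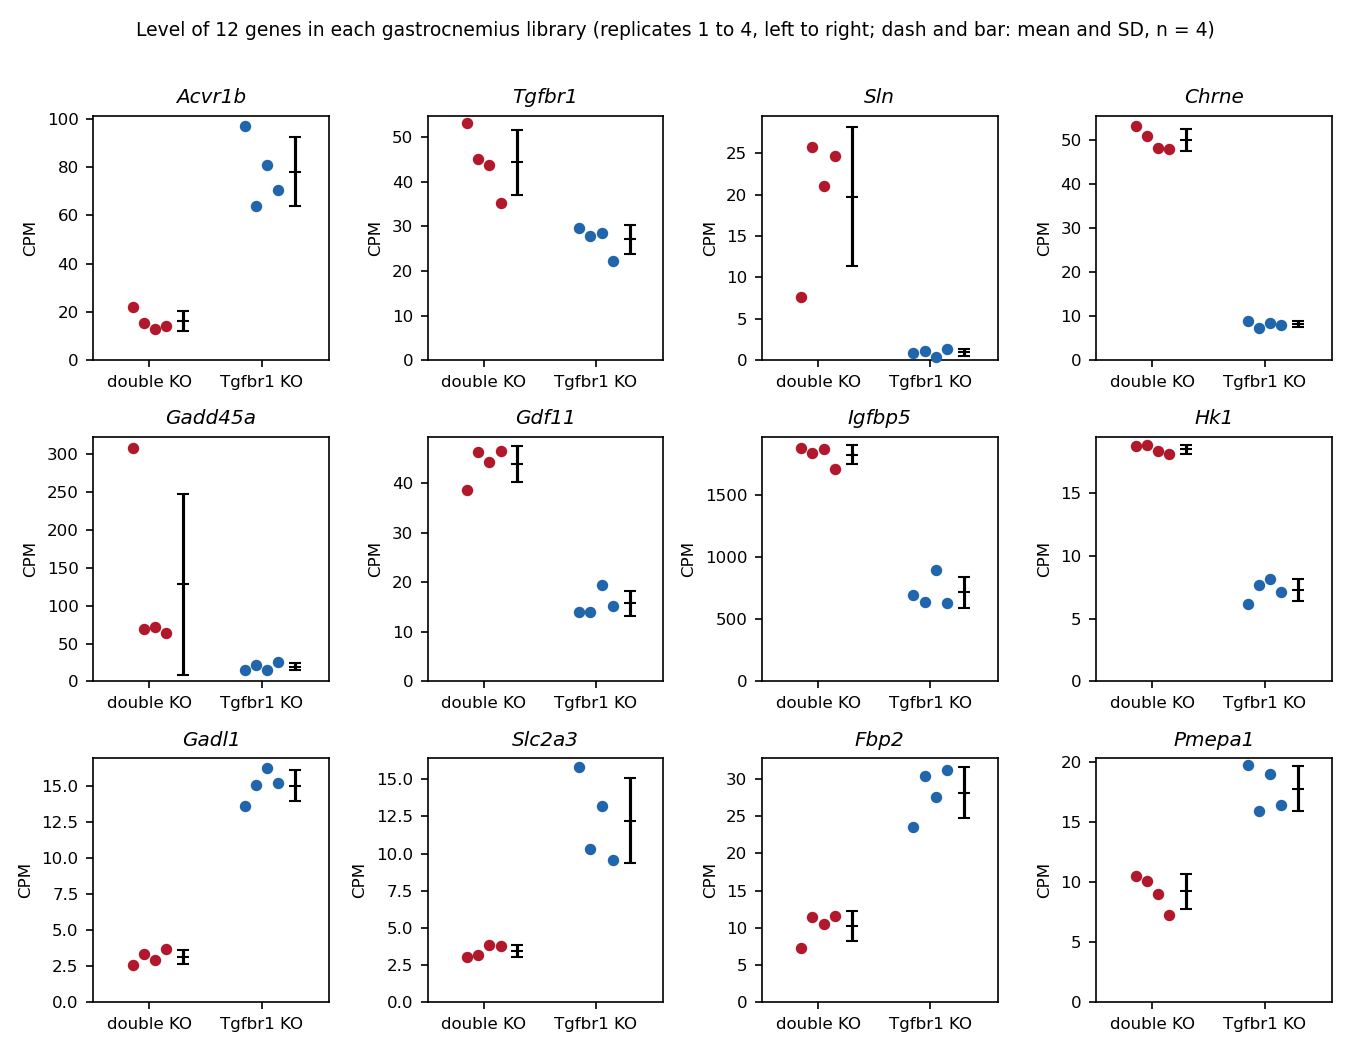
Level in CPM of 12 genes in each of the 8 gastrocnemius libraries, with points for replicates 1 to 4 and the mean with its SD (n = 4). The double knockouts and the muscles labelled Tgfbr1 KO do not overlap in any of the 12 panels, and Gadd45a shows replicate 1 of the double knockout at 308 CPM.

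Genes of the TGF-beta family were counted by their role. Each list count in this text can be set beside the 7.44% higher and 5.42% lower of all genes tested. Of 12 receptors tested, 3 were higher (Tgfbr1, Acvr2a and Tgfbr2, but 1 of 12 without double knockout replicate 2 or 3 or Tgfbr1 KO replicate 2, 3 or 4, and 2 without replicate 1 of either group) and 1 was lower (Acvr1b), with a median log2 fold change of −0.00101 beside 0.00326 over all genes. Acvr2a, a type II receptor for activins and myostatin, had 27.1, 61.9, 40.6 and 31.9 CPM in the double knockout, against 26.2, 21.9, 27.5 and 16.6 CPM in muscles labelled Tgfbr1 KO. Replicate 1 of the double knockout lay below replicate 3 of the other group (log2 fold change 0.82, SE 0.261, adjusted p = 0.0494). Tgfbr2, the type II receptor of the TGF-beta ligands, had 35.4, 32.3, 32.4 and 31.4 CPM in the double knockout, against 28.4, 24.5, 25.7 and 26.1 CPM in the other group, with no overlap (log2 fold change 0.33, SE 0.0958, adjusted p = 0.0314). Acvr2a was not called without double knockout replicate 2 or 3 or Tgfbr1 KO replicate 1, 2, 3 or 4 (adjusted p = 0.0596 to 0.178), nor Tgfbr2 without double knockout replicate 1, 2 or 3 or Tgfbr1 KO replicate 2, 3 or 4 (adjusted p = 0.0525 to 0.0959).

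Of 30 ligands, antagonists and latent binding proteins, 5 were higher and none was lower (median 0.0578). Without double knockout replicate 1 there were 8 higher, and without double knockout replicate 4 or Tgfbr1 KO replicate 3 there were 3. Gdf11, a close relative of myostatin that signals through both receptors, had 38.6, 46.4, 44.2 and 46.5 CPM in the double knockout, against 14.1, 14.1, 19.5 and 15.3 CPM in muscles labelled Tgfbr1 KO. It stood out as the clearest rise of the list, with no overlap (log2 fold change 1.48, SE 0.126, adjusted p = 1.43e-06), and its departure from additivity was called as well (1.41, adjusted p = 3.21e-04). Inhba, which encodes the activin A subunit, had 1.36, 5.13, 4.32 and 5.13 CPM in the double knockout, against 0.914, 2.02, 1.93 and 1.08 CPM in the other group. Replicate 1 of the double knockout lay within the other group, and the remaining 3 lay above it (log2 fold change 1.39, SE 0.337, adjusted p = 0.011996). Ltbp2, a matrix protein of the latent TGF-beta binding family, had a log2 fold change of 0.96 and was not called without double knockout replicate 4 or Tgfbr1 KO replicate 3 or 4 (adjusted p = 0.0625 to 0.0737). Mstn, which encodes myostatin, averaged 85.5 ± 6.89 CPM in the double knockout and 86.2 ± 11.1 CPM in muscles labelled Tgfbr1 KO (log2 fold change −0.01, adjusted p = 0.983).

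Of 19 mediators, targets and feedback genes of SMAD2 and SMAD3, 2 were higher (1 without double knockout replicate 3 or Tgfbr1 KO replicate 3) and 2 were lower. Pmepa1, a feedback inhibitor that TGF-beta induces, fell to 10.5, 10.2, 9.01 and 7.301 CPM in the double knockout, against 19.7, 15.9, 19.1 and 16.5 CPM in muscles labelled Tgfbr1 KO, with no overlap (log2 fold change −0.94, SE 0.133, adjusted p = 2.10e-04). Smad4, the shared partner of the receptor SMADs, had a log2 fold change of −0.395 (adjusted p = 0.00892). The higher members were Smad7, the inhibitory SMAD (4.22 ± 0.673 CPM in the double knockout and 2.81 ± 0.258 CPM in Tgfbr1 KO muscles, log2 fold change 0.599), and Tgfbi, a TGF-beta induced matrix protein (25.3 ± 0.718 CPM in the double knockout and 16.6 ± 3.21 CPM in Tgfbr1 KO muscles, log2 fold change 0.62). Smad7 was not called without double knockout replicate 3 or Tgfbr1 KO replicate 2 or 3 (adjusted p = 0.0614 to 0.0796).

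Of 14 mediators and targets of the BMP branch, 5 were higher and none was lower, with a median log2 fold change of 0.25, but only 2 or 3 were higher without double knockout replicate 1 or 3 or any 1 of the Tgfbr1 KO libraries. Smad9, a receptor SMAD of that branch, had 0.616, 1.32, 1.3 and 1.31 CPM in the double knockout, against 0.183, 0.327, 0.215 and 0.314 CPM in muscles labelled Tgfbr1 KO, all low levels (log2 fold change 2.04, SE 0.399, adjusted p = 0.00293). Double knockout replicate 1 was low within its group and still above every library of the other. Id3, a BMP-induced inhibitor of helix-loop-helix factors, had 7.74, 4.29, 7.34 and 5.34 CPM in the double knockout, against 2.92, 3.07, 1.61 and 3.12 CPM in the other group, with no overlap (log2 fold change 1.19, SE 0.257, adjusted p = 0.00568). Its relative Id1 and the helix-loop-helix factor Atoh8 had log2 fold changes of 0.88 and 0.89. Id1 was not called without double knockout replicate 1, 2 or 3 or Tgfbr1 KO replicate 2, 3 or 4 (adjusted p = 0.0601 to 0.123), and Atoh8 was not called without double knockout replicate 1 or Tgfbr1 KO replicate 1, 2 or 3 (adjusted p = 0.0614 to 0.0806).

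Called genes of the neuromuscular junction were all higher. Of 19 such genes tested, 10 were higher and none was lower, with a median log2 fold change of 0.617, and 10 were also higher without double knockout replicate 1. Acetylcholine receptors of the adult junction are pentamers of alpha, beta, delta and epsilon subunits, and nuclei under the nerve ending transcribe them through E-box and N-box elements in their promoters. Chrne encodes the epsilon subunit, the one that marks the innervated adult junction, and Chrna1 the alpha subunit. Both promoters are shown because these genes led the list. The windows are the 250 bases before the start of each gene in RefSeq on GRCm38.p6, read on the gene's strand, chr11:70619195-70619444 and chr2:73580339-73580588, both minus. Capitals mark the E-box CAGCTG and the N-box CCGGAA.

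Chrne: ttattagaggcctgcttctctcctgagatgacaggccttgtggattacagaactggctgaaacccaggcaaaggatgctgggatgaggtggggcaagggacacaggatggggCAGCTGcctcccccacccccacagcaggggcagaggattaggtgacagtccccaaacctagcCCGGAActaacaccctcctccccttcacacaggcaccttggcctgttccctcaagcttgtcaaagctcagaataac

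Chrna1: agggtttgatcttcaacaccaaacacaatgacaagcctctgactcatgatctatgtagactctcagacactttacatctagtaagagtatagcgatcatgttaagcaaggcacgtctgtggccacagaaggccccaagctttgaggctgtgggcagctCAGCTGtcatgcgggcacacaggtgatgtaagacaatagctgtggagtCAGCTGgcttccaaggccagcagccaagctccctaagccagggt

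The Chrne window held 1 E-box, which began 138 bases before the start, and 1 N-box at 76 bases. The Chrna1 window held 2 E-boxes, at 92 and 44 bases, and no N-box. Both motifs were searched on both strands, and they share no bases in these windows. Among 32851 windows of that length in the promoter table, 13% held the E-box, 12% the N-box and 1.29% both. Of the 13 junction genes with a window in the table, 4 held the E-box and 1 the N-box. A match describes these letters and is no evidence of binding.

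Chrne (chromosome 11, 70614883 to 70619216) had 53.1, 50.9, 48.1 and 48.01 CPM in the double knockout, against 9.02, 7.45, 8.404 and 7.98 CPM in muscles labelled Tgfbr1 KO. Both groups were narrow and a wide gap lay between them (log2 fold change 2.62, SE 0.112, adjusted p = 5.42e-10). Chrne averaged 8.03 ± 0.468 CPM in the Acvr1b knockout and 8.31 ± 1.44 CPM in controls (SD, n = 4 each), and the departure from additivity was 2.66 on the log2 scale (adjusted p = 7.81e-08). Chrna1 (chromosome 2, 73563215 to 73580338) had 68.8, 20.7, 19.9 and 17.2 CPM in the double knockout, against 9.75, 10.2, 9.55 and 11.6 CPM in the other group. Replicate 1 was far above its companions, which still lay above the other group, and the log2 fold change was 1.61 with it and 0.902 without it (adjusted p = 0.00371 and 4.07e-05). Chrnd, the delta subunit, followed the same order, with 8.88, 3.78, 4.02 and 3.499 CPM in the double knockout, against 2.31, 2.55, 1.86 and 2.38 CPM in muscles labelled Tgfbr1 KO (log2 fold change 1.13, SE 0.265, adjusted p = 0.00999, or 0.72 without replicate 1). Chrnb1, the beta subunit, averaged 21.98 ± 7.32 CPM in the double knockout and 20.7 ± 3.69 CPM in Tgfbr1 KO muscles and was not called (log2 fold change 0.08, adjusted p = 0.847).

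Nes, which encodes nestin, an intermediate filament protein enriched under the junction, had 125, 158, 157 and 167 CPM in the double knockout, against 50.1, 45.7, 52.3 and 50.9 CPM in muscles labelled Tgfbr1 KO, with no overlap (log2 fold change 1.61, SE 0.136, adjusted p = 1.43e-06). Lrtm1, a leucine-rich repeat membrane protein, averaged 89.7 ± 24.6 CPM in the double knockout and 38.5 ± 4.96 CPM in Tgfbr1 KO muscles (log2 fold change 1.22, SE 0.154, adjusted p = 7.67e-05). Etv5 and Etv4, ETS factors that bind junction promoters, had log2 fold changes of 0.896 and 1.19, with no overlap. Ache, the synaptic acetylcholinesterase, had 17.8, 45.2, 44.5 and 40.8 CPM in the double knockout, against 20.7, 18.4, 19.2 and 20.9 CPM in the other group. Replicate 1 of the double knockout was the lowest of the 8 libraries and the other 3 were above all of the rest (log2 fold change 0.91, SE 0.212, adjusted p = 0.00945). Colq, the collagen tail that anchors acetylcholinesterase, had a log2 fold change of 0.62, and Erbb2, a neuregulin co-receptor, 0.75. Erbb2 was not called without double knockout replicate 1 or 2 or Tgfbr1 KO replicate 2, 3 or 4 (adjusted p = 0.0706 to 0.116).

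Genes of the denervation response, which muscle switches on after its nerve is lost, were counted next. Of 17 members tested, 9 were higher and 1 was lower, with a median log2 fold change of 1.04. Without double knockout replicate 1 the counts were 8 and 2, and the median was 0.634. Myog, the myogenic factor myogenin, had 13.6, 2.13, 2.11 and 2.33 CPM in the double knockout, against 0.731, 1.57, 1.43 and 1.66 CPM in muscles labelled Tgfbr1 KO. It was high in replicate 1, with log2 fold changes of 1.81 and, without that library, 0.63, and it was not called without double knockout replicate 1 or Tgfbr1 KO replicate 1, 2, 3 or 4 (adjusted p = 0.0528 to 0.113). Myod1, a second myogenic factor, averaged 6.02 ± 1.44 CPM in the double knockout and 2.16 ± 0.869 CPM in Tgfbr1 KO muscles (log2 fold change 1.403, or 1.25 without replicate 1, adjusted p = 0.00491). Dach2, a repressor of myogenin that falls after denervation, was the member that fell (log2 fold change −1.08, adjusted p = 0.0139), a call lost without Tgfbr1 KO replicate 2 (adjusted p = 0.0637). Markers of Schwann cells and nerve gave 0 calls of 12 with edgeR and with DESeq2 (1 at an unadjusted edgeR p under 0.05), with a summed level of 34.1 to 40.4 CPM in the double knockout and 38.9 to 57.6 CPM in muscles labelled Tgfbr1 KO.

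**Figure D4:**
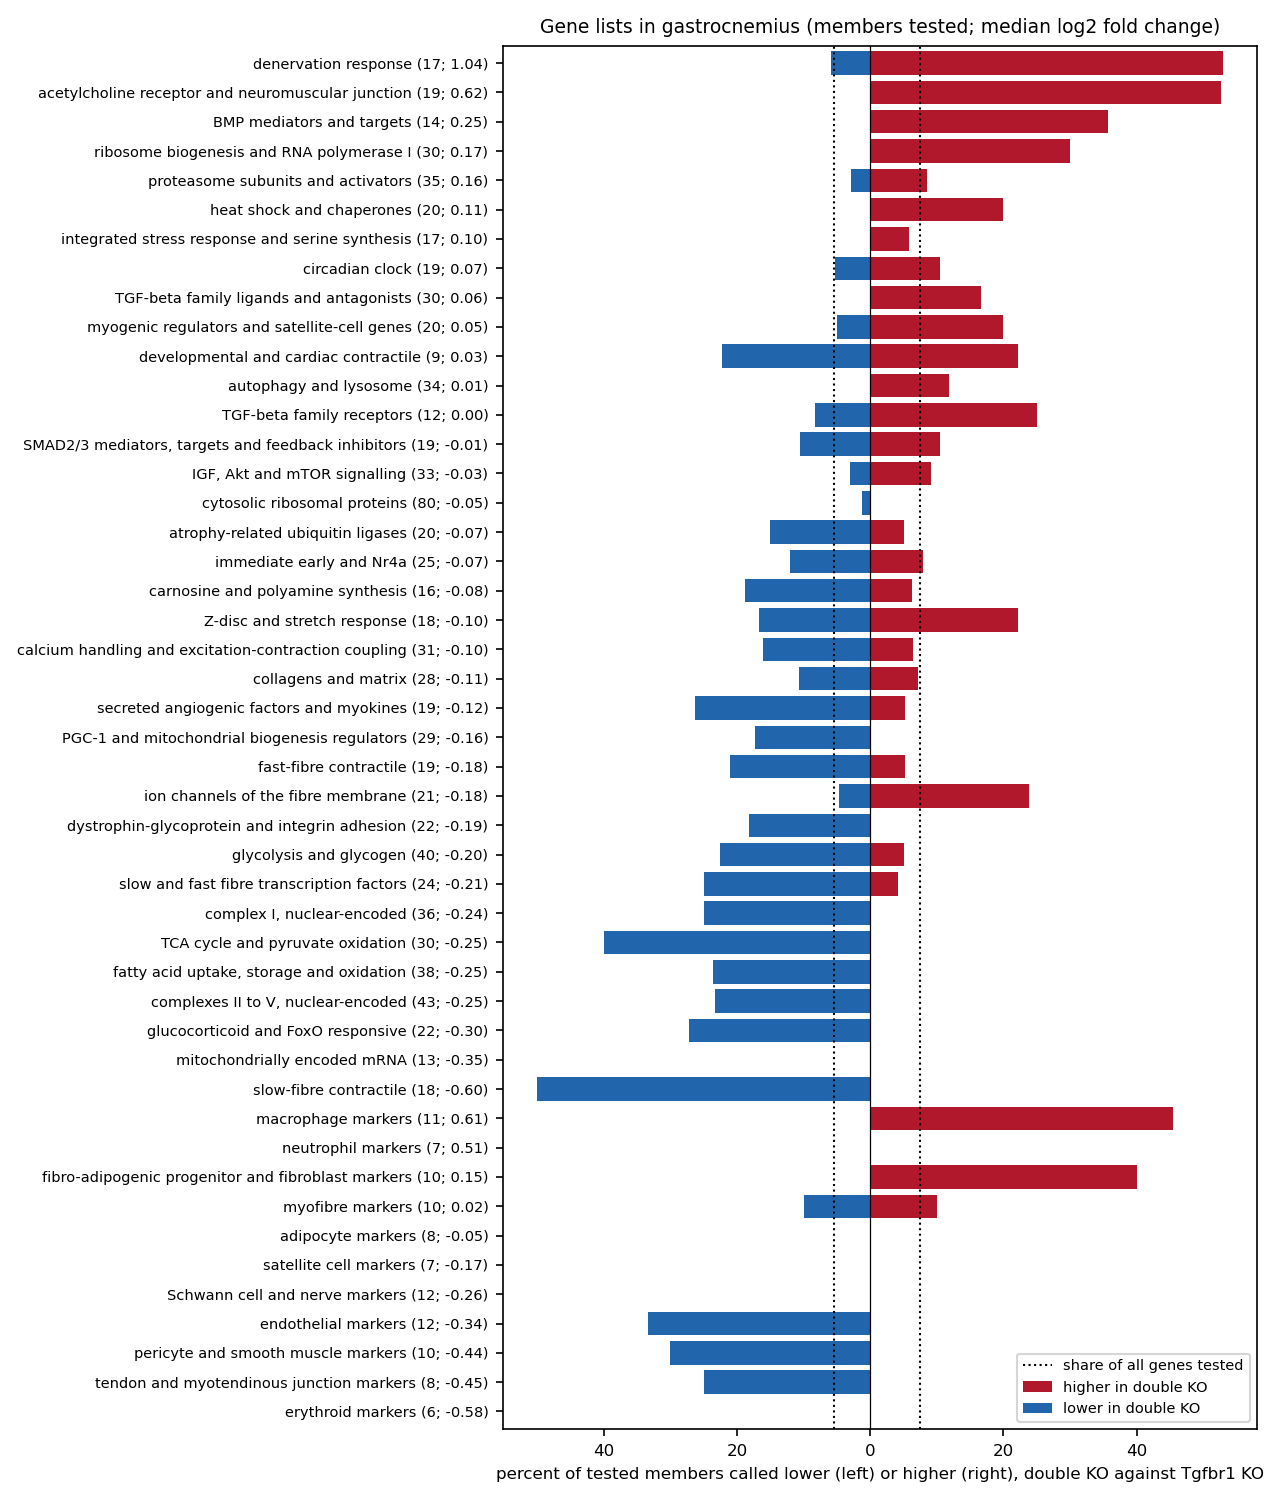
Percent of the tested members of each list called higher (right) or lower (left) in the double knockout against Tgfbr1 KO, with the number tested and the median log2 fold change after each name. Dotted lines mark the 7.44% and 5.42% of all genes tested; slow-fibre contractile genes reach 50% lower, junction and denervation genes just over 50% higher.

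Called contractile genes of slow fibres were all lower. Of 18 tested, 9 were lower and none was higher (median −0.597), and 9 were lower without double knockout replicate 1. The largest falls were in Myh7b, a slow-type myosin heavy chain (log2 fold change −0.904, SE 0.195, adjusted p = 0.00559), and in the slow troponin genes Tnnt1 (log2 fold change −0.82, SE 0.147, adjusted p = 0.00156), Tnni1 (log2 fold change −0.79, SE 0.172, adjusted p = 0.00612) and Tnnc1 (log2 fold change −0.79, SE 0.152, adjusted p = 0.00262). Myh7, the slow myosin heavy chain, was lower too (log2 fold change −0.66, SE 0.149, adjusted p = 0.00774). Atp2a2, the slow and cardiac calcium pump, had 209.97, 264, 249 and 258 CPM in the double knockout, against 343, 384, 427 and 414 CPM in muscles labelled Tgfbr1 KO (log2 fold change −0.68, SE 0.111, adjusted p = 7.86e-04). Of 19 fast contractile genes, 1 was higher (5.26%) and 4 were lower (21.1%, or 2 genes without double knockout replicate 3). The median of the fast list was −0.179, and 14 of its 19 log2 fold changes were negative. Myh2, the IIa myosin, averaged 3899.8 ± 614 CPM in the double knockout and 5557 ± 539 CPM in Tgfbr1 KO muscles (log2 fold change −0.51, SE 0.107, adjusted p = 0.00476), and Myh4 had a log2 fold change of −0.37 (adjusted p = 0.0216). Myh1, the IIx myosin, had −0.35 (adjusted p = 0.148). Actn3, the fast-fibre alpha-actinin, was the fast gene that rose (log2 fold change 0.36, SE 0.0906, adjusted p = 0.0137). The call of Actn3 was lost without Tgfbr1 KO replicate 2 (adjusted p = 0.0539) and that of Myh4 without double knockout replicate 3 or Tgfbr1 KO replicate 3 (adjusted p = 0.0592 to 0.0746), while Myh1 was called as lower without double knockout replicate 1 (adjusted p = 0.01795). Myosin genes are near copies of each other and share fractional reads, so their split is uncertain.

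Genes were also grouped by their level in the control muscles. Of 173 tested genes at least 4 times higher in control gastrocnemius, 48 were lower in the double knockout (27.7%) and 27 were higher (15.6%), with a median log2 fold change of −0.266. Of 217 genes at least 4 times higher in control soleus, 28 were lower (12.9%) and 25 were higher (11.5%), with a median of −0.114. Of 1236 genes 2 to 4 times higher in control soleus, 76 were lower (6.15%) and 136 were higher (11%), with a median of 0.0311, and of 522 genes 2 to 4 times higher in control gastrocnemius, 76 were lower (14.6%) and 56 were higher (10.7%), with a median of −0.0932. Of 12184 genes within 2-fold between the control muscles, 678 were lower (5.56%) and 830 were higher (6.81%), with a median of −0.00247. The control libraries that defined these classes were not part of the contrast, but they shared its estimate of the spread.

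Fibre membrane and calcium genes held called members in both directions. Of 21 ion channel genes, 5 were higher and 1 was lower (2 lower without double knockout replicate 1, 3 without Tgfbr1 KO replicate 4). Kcnk5, a background potassium channel, had 3.17, 0.972, 1.56 and 0.653 CPM in the double knockout, against 0.122, 0.442, 0.358 and 0.135 CPM in muscles labelled Tgfbr1 KO, with no overlap (log2 fold change 2.45, SE 0.504, adjusted p = 0.00404). Without double knockout replicate 1 the log2 fold change of Kcnk5 was 1.89 (adjusted p = 0.00917). Of 31 calcium handling genes, 2 were higher (6.45%), Sln among them, and 5 were lower (16.1%, but 2 or 3 genes without double knockout replicate 3 or 4 or Tgfbr1 KO replicate 1, 2 or 3). Over all genes tested these shares were 7.44% and 5.42%. In the dystrophin complex and its partners 4 of 22 were lower and none was higher (2 lower without double knockout replicate 2 or Tgfbr1 KO replicate 2 or 3). Sntb1, a syntrophin, averaged 0.959 ± 0.2402 CPM in the double knockout and 2.99 ± 0.866 CPM in Tgfbr1 KO muscles (log2 fold change −1.61, SE 0.2302, adjusted p = 2.28e-04). Nos1, the neuronal nitric oxide synthase that syntrophin anchors, had 112, 55.5, 67.4 and 75.5 CPM in the double knockout, against 167, 146, 165 and 149 CPM in muscles labelled Tgfbr1 KO, with no overlap (log2 fold change −1.02, SE 0.161, adjusted p = 5.73e-04).

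Called genes of oxidative metabolism were lower, by small amounts. In the tricarboxylic acid cycle and pyruvate oxidation 12 of 30 tested genes were lower and none was higher (median −0.247). Nuclear genes of respiratory complex I gave 9 lower of 36 (median −0.237), those of complexes II to V 10 of 43 (median −0.249), and fatty acid uptake and oxidation 9 of 38 (median −0.248), each with none higher. These counts rested on small changes near the threshold. In the tricarboxylic acid cycle list 4 to 6 were lower without double knockout replicate 2 or 3 or Tgfbr1 KO replicate 2, 3 or 4, and in complex I 5 were lower without double knockout replicate 3 or Tgfbr1 KO replicate 2 or 4. Without Tgfbr1 KO replicate 1 the lower genes were 17 in complex I, 16 in complexes II to V and 14 in fatty acid oxidation. None of the 13 mRNAs encoded by the mitochondrial genome was called with edgeR or DESeq2, and none had an unadjusted p under 0.05 (median −0.352). Idh3a, a catalytic subunit of isocitrate dehydrogenase, had 270.2, 398, 373 and 393 CPM in the double knockout, against 463, 482, 514 and 481 CPM in muscles labelled Tgfbr1 KO (log2 fold change −0.44, SE 0.109, adjusted p = 0.0142). Ndufv2 of complex I (log2 fold change −0.38), the uncoupling protein Ucp3 (log2 fold change −0.75, SE 0.173, adjusted p = 0.00898) and the lipid droplet protein Plin4 (log2 fold change −0.75, SE 0.144, adjusted p = 0.00249) were among the lower genes. Of 29 genes of mitochondrial biogenesis, 5 were lower and none was higher (2 or 3 lower without Tgfbr1 KO replicate 3 or 2). Ppargc1a, the coactivator PGC-1 alpha, had 23.7, 25.1, 24.1 and 27.1 CPM in the double knockout, against 34.2, 40.2, 56.5 and 35.9 CPM in the other group, with no overlap (log2 fold change −0.74, SE 0.182, adjusted p = 0.0134), a call lost without Tgfbr1 KO replicate 3 (adjusted p = 0.0534). Nrip1, a corepressor of oxidative genes, fell as well (log2 fold change −1.01, SE 0.175, adjusted p = 0.00113).

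Glucose-handling genes moved in both directions, with 2 higher and 9 lower of 40 (4 or 5 lower without double knockout replicate 3 or Tgfbr1 KO replicate 2 or 3). Hk1, the hexokinase of non-insulin-dependent tissues, had 18.7, 18.8, 18.3 and 18.1 CPM in the double knockout, against 6.15, 7.66, 8.15 and 7.15 CPM in muscles labelled Tgfbr1 KO. The values were almost constant within the double knockout and well above the other group (log2 fold change 1.34, SE 0.0885, adjusted p = 6.69e-08). Pfkfb3, which makes the fructose bisphosphate that activates glycolysis, had 401, 553, 615 and 424 CPM in the double knockout, against 173, 150.2, 174 and 64.2 CPM in the other group, with no overlap (log2 fold change 1.83, SE 0.316, adjusted p = 0.00113). Fbp2 fell, as given above, and so did the transporter Slc2a3. Pfkfb3 and Slc2a3 held fractional counts in 16 and 13 of the 16 gastrocnemius libraries.

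Growth signalling genes held called members in both directions. In insulin, IGF, Akt and mTOR signalling 3 of 33 were higher (9.09%) and 1 was lower (3.03%, or 2 genes without Tgfbr1 KO replicate 4). These shares lay near the 7.44% and 5.42% of all genes tested. Igfbp5, an IGF-binding protein that muscle secretes, had 1875, 1836, 1874 and 1711 CPM in the double knockout, against 692, 638, 899.7 and 633 CPM in muscles labelled Tgfbr1 KO, with no overlap (log2 fold change 1.35, SE 0.1998, adjusted p = 3.25e-04). Akt2, the insulin-responsive kinase, averaged 302 ± 62.1 CPM in the double knockout and 195 ± 16.3 CPM in Tgfbr1 KO muscles (log2 fold change 0.63, SE 0.112, adjusted p = 0.00151), and Ddit4l, an inhibitor of mTOR, 215 ± 33.5 CPM in the double knockout and 90.8 ± 16.9 CPM in Tgfbr1 KO muscles (log2 fold change 1.25, SE 0.255, adjusted p = 0.00392). Insr, the insulin receptor, fell (log2 fold change −0.43, SE 0.08298, adjusted p = 0.00259). Of 22 genes known to respond to glucocorticoids or FoxO factors, 6 were lower and none was higher (median −0.296), and without double knockout replicate 1 there were 9 lower. Fkbp5, a co-chaperone of the glucocorticoid receptor, had 105, 39.8, 45.4 and 51.3 CPM in the double knockout, against 162, 146, 145 and 144 CPM in the other group. Foxo1, a factor that drives atrophy genes, had 117, 54.4, 55.7 and 63.7 CPM in the double knockout, against 170.2, 132, 165 and 105 CPM in muscles labelled Tgfbr1 KO. Replicate 1 was the highest double knockout of both genes, and only for Foxo1 did it reach into the other group (log2 fold changes −1.31 and −0.98, or −1.72 and −1.302 without it). Gadd45b, a stress-responsive signalling gene, averaged 3.72 ± 1.101 CPM in the double knockout and 11.4 ± 6.13 CPM in Tgfbr1 KO muscles (log2 fold change −1.57, SE 0.388, adjusted p = 0.0136), and its call was lost without double knockout replicate 1 and Tgfbr1 KO replicate 1 together (log2 fold change −1.01, adjusted p = 0.101).

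Genes of proteolysis, ribosomes and protein folding were counted next. Of 20 atrophy-related ubiquitin ligases, 1 was higher (0 without double knockout replicate 4 or Tgfbr1 KO replicate 2, 3 or 4) and 3 were lower, among them Cblb, a ligase that targets the insulin pathway (log2 fold change −0.61, SE 0.134, adjusted p = 0.00636). Of 34 autophagy and lysosome genes 4 were higher (2 without double knockout replicate 1 or 3 or Tgfbr1 KO replicate 1 or 2), led by the lysosomal protease Ctsl, with 209, 86.8, 82.7 and 83.3 CPM in the double knockout, against 65.2, 63.2, 63.8 and 64.6 CPM in muscles labelled Tgfbr1 KO. Replicate 1 was the high library, and the log2 fold change was 0.84 with it and 0.39 without it. Of 30 ribosome biogenesis genes 9 were higher, but 1 to 4 without double knockout replicate 1 or 3 or any 1 of the Tgfbr1 KO libraries, and 1 without both of the libraries that stood apart. Of 80 cytosolic ribosomal protein genes 1 was called, and 0 without double knockout replicate 3 or Tgfbr1 KO replicate 1 or 2. Of 20 chaperone genes 4 were higher (2 without double knockout replicate 3 or 4 or Tgfbr1 KO replicate 1, 2 or 3). Hspb8, a small heat shock protein of chaperone-assisted autophagy, had 1255, 880.4, 1033 and 897 CPM in the double knockout, against 330.5, 392, 369 and 439.8 CPM in the other group, with no overlap (log2 fold change 1.41, SE 0.111, adjusted p = 6.50e-07).

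Activity-linked and polyamine genes completed the fibre programme that was examined. Arc, an immediate early gene, had 4.04, 3.65, 4.64 and 3.802 CPM in the double knockout, against 1.04, 1.402, 1.14 and 1.52 CPM in muscles labelled Tgfbr1 KO, with no overlap (log2 fold change 1.62, SE 0.194, adjusted p = 5.24e-05). Nr4a3, an exercise-induced nuclear receptor, averaged 7.42 ± 5.101 CPM in the double knockout and 29.6 ± 16.6 CPM in Tgfbr1 KO muscles, with replicate 1 highest in the double knockout and overlap between groups (log2 fold change −2.01, SE 0.599, adjusted p = 0.0362). It was not called without double knockout replicate 2, 3 or 4 or Tgfbr1 KO replicate 1, 2 or 3 (adjusted p = 0.0551 to 0.118). Nr4a2, its relative, fell without overlap (log2 fold change −1.06, SE 0.212, adjusted p = 0.00345). Amd1 and Amd2, near-identical copies of the decarboxylase that supplies polyamine synthesis, had log2 fold changes of −0.78 and −0.81. They share reads, so they count as 1 signal, and Sms, spermine synthase, rose (log2 fold change 0.53, SE 0.0998, adjusted p = 0.00219).

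Secreted angiogenic factors and myokines gave 5 lower and 1 higher of 19 (2 higher without double knockout replicate 1, 2 or 4). Fgf1, a fibroblast growth factor, had 21.5, 29.2, 28.6 and 28.7 CPM in the double knockout, against 43.1, 63.7, 69.8 and 55.1 CPM in muscles labelled Tgfbr1 KO, with no overlap (log2 fold change −1.103, SE 0.134, adjusted p = 5.62e-05). Vegfa, the main endothelial growth factor, had 88.4, 142, 147 and 141 CPM in the double knockout, against 181, 230.01, 249 and 206 CPM in the other group. Replicate 1 was the lowest for both genes, and the others were still below the whole other group (log2 fold change −0.74, SE 0.1502, adjusted p = 0.00376 for Vegfa). Nrg4, a neuregulin that binds ERBB4, was the member that rose (log2 fold change 1.63, SE 0.327, adjusted p = 0.00352).

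Marker genes of other cells of the muscle moved too, and in a whole muscle fewer cells of a type and less RNA per cell cannot be told apart. Endothelial markers gave 4 lower of 12 and none higher (median −0.339), with a summed level of 334 to 349 CPM in the double knockout and 416 to 462 CPM in muscles labelled Tgfbr1 KO. Pecam1, the endothelial adhesion molecule CD31, had 41.4, 44.02, 38.6 and 39.7 CPM in the double knockout, against 56.7, 57.1, 60.2 and 49.97 CPM in the other group, with no overlap (log2 fold change −0.45, SE 0.0691, adjusted p = 4.18e-04). Macrophage markers gave 5 higher of 11 (median 0.610), with a summed level of 85.8 to 160 CPM in the double knockout and 61.9 to 73.2 CPM in muscles labelled Tgfbr1 KO. There were 2 or 3 calls without double knockout replicate 1 or Tgfbr1 KO replicate 1, 2 or 3, and Cd68, a lysosomal protein of macrophages, was not called without double knockout replicate 1 or Tgfbr1 KO replicate 1, 2, 3 or 4 (adjusted p = 0.0682 to 0.134). Markers of fibroblasts and fibro-adipogenic progenitors gave 4 higher of 10, Lum and Pdgfra among them (log2 fold changes 0.97 and 0.55), but the sums of the list overlapped, at 1220 to 1331 CPM in the double knockout and 983 to 1418 CPM in the other group. Pericyte and smooth muscle markers gave 3 lower of 10 (0 or 1 without double knockout replicate 3 or 4 or Tgfbr1 KO replicate 1 or 3). Tendon markers gave 2 lower of 8 (1 without double knockout replicate 3 or 4 or Tgfbr1 KO replicate 1, 2 or 3, and 5 without Tgfbr1 KO replicate 4), Kera among them (log2 fold change −1.11, SE 0.205, adjusted p = 0.001897). Neutrophil, adipocyte, erythroid and satellite cell markers gave no call with edgeR on all libraries, with 1 of 7, 1 of 8, 0 of 6 and 2 of 7 at an unadjusted p under 0.05, and DESeq2 called 1 satellite cell marker. Without double knockout replicate 1, edgeR called 4 of the 6 erythroid markers and 1 adipocyte marker as lower. It called 1 satellite cell marker as lower without double knockout replicate 2 or Tgfbr1 KO replicate 1 or 4. Summed erythroid levels were 365, 169, 186 and 177 CPM in the double knockout and 274 to 429 CPM in Tgfbr1 KO muscles. Ighm, the heavy chain of immunoglobulin M, had 154, 309, 359 and 272 CPM in the double knockout, against 71.03, 70.9, 109 and 88.8 CPM in muscles labelled Tgfbr1 KO (log2 fold change 1.69, SE 0.225, adjusted p = 1.28e-04), while the T-cell gene Cd3e did not pass the filter on low counts. The part of these cells in the gene lists above was not tested.

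Genes near the targeted loci were counted apart. Within 5 Mb of Acvr1b 30 of 135 tested genes were called (22.2%), 15 in each direction, against 12.7% on chromosomes without a targeted gene. Of the 5 genes called in Acvr1b knockout against control, 4 lay in that window and the other was Acvr1b itself. Slc4a8, a sodium-driven bicarbonate exchanger on chromosome 15, had 1.97, 1.62, 1.21 and 2.01 CPM in the double knockout, against 8.53, 6.65, 8.65 and 5.29 CPM in muscles labelled Tgfbr1 KO (log2 fold change −2.08, SE 0.202, adjusted p = 5.46e-06). It averaged 2.54 ± 0.313 CPM in the Acvr1b knockout and 8.56 ± 1.87 CPM in controls, a fall of like size (log2 fold change −1.75, adjusted p = 6.33e-04). Mettl7a3 and Mettl7a2, neighbouring copies of a methyltransferase-like gene, rose in both comparisons (log2 fold changes 2.34 and 1.28 in double knockout over Tgfbr1 KO, 2.06 and 1.15 in Acvr1b knockout over control). Only Mettl7a3 passed the threshold in the second of these. Within 5 Mb of Tgfbr1 16 of 95 genes were called (16.8%), and none of them in Acvr1b knockout against control. Shisal1 and Krt18 also lie within 20 Mb of Acvr1b, and Nr4a3 within 20 Mb of Tgfbr1. Shisal1 departed from additivity, as given above. Krt18 had a log2 fold change of 3.8, and 2.11 without double knockout replicate 1. Its call was lost without double knockout replicate 1 or Tgfbr1 KO replicate 3 (adjusted p = 0.054 to 0.0913). Deletion of a gene and the chromosome segment inherited with it cannot be told apart here.

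The soleus of the same mice gave few calls. Double knockout against Tgfbr1 KO called 9 genes in soleus (0.0496%), 6 higher (0.0331%) and 3 lower (0.0165%), and all 9 were called in gastrocnemius with the same sign. Without double knockout replicate 3 there were 5 and without Tgfbr1 KO replicate 1, 3 or 4 there were 4. Between-animal variation was wider there, with a common edgeR biological coefficient of variation of 0.2176 in soleus against 0.1503 in gastrocnemius. Genes higher in gastrocnemius had a median log2 fold change of 0.26 in soleus and of 0.67 in gastrocnemius over the 1248 genes tested in both, and the lower ones a median of −0.218 in soleus and of −0.495 in gastrocnemius over 935 genes, all chosen on the gastrocnemius. Pfkfb3 rose in both muscles, with 107, 39.96, 54.3 and 65.5 CPM in double-knockout soleus, against 23.3, 23.5, 16.2 and 15.7 CPM in soleus labelled Tgfbr1 KO (log2 fold change 1.76, SE 0.289, adjusted p = 0.0395), and its soleus call was lost without double knockout replicate 1, 3 or 4 or Tgfbr1 KO replicate 1, 2, 3 or 4 (adjusted p = 0.0612 to 0.201). Shisal1, which lies within 20 Mb of Acvr1b, was also called in soleus (log2 fold change 1.698, SE 0.262, adjusted p = 0.0293). So were Acvr1b itself (log2 fold change −1.65, adjusted p = 3.99e-04) and its neighbours Slc4a8 (−1.44, adjusted p = 0.00143) and Mettl7a2 (1.53, adjusted p = 0.0395). The soleus call of Mettl7a2 was lost without any 1 of the Tgfbr1 KO libraries (adjusted p = 0.0678 to 0.199).

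The difference between the muscles, tested in a fit of all 32 libraries, was called for 54 genes (0.288%), 17 positive (0.0908%) and 37 negative (0.198%). This fit did not pair the muscles of a mouse, and the values of single genes below come from it. With the mouse as a block, since the labels give both muscles of each mouse, the difference was called for 142 genes. These included 52 of the 54. Sln had 59.1, 43.6, 65.3 and 57.1 CPM in double-knockout soleus, against 37.3, 29.9, 33.96 and 30.9 CPM in soleus labelled Tgfbr1 KO. Its soleus level was higher in both genotypes than any gastrocnemius level, and its soleus change (log2 fold change 0.77, adjusted p = 0.186) differed from that in gastrocnemius (log2 fold change −3.52, SE 0.417, adjusted p = 1.14e-05 for the difference). Chrne had 4.61, 7.57, 8.4005 and 10.02 CPM in double-knockout soleus, against 6.31, 5.85, 6.46 and 5.18 CPM in soleus labelled Tgfbr1 KO, and the difference between muscles was −2.25 (adjusted p = 7.30e-06). Gadl1 had a difference of 1.34 and Slc2a3 of 2.18 (adjusted p = 0.0336 and 7.30e-06). Their soleus log2 fold changes were −0.92 and 0.37, and the difference of Gadl1 was not called without double knockout replicate 2, 3 or 4 or Tgfbr1 KO replicate 1, 2, 3 or 4 (adjusted p = 0.0615 to 0.157). Amd1 and Amd2 had positive differences of 1.41 and 1.42, and Spns2, a sphingosine phosphate transporter, of 1.39. Amd1 was not called for this difference without double knockout replicate 3 or 4 or Tgfbr1 KO replicate 1, 3 or 4 (adjusted p = 0.0718 to 0.169), Amd2 without double knockout replicate 3 or 4 or Tgfbr1 KO replicate 1, 3 or 4 (adjusted p = 0.0833 to 0.169) and Spns2 without double knockout replicate 3 or 4 or Tgfbr1 KO replicate 1 or 4 (adjusted p = 0.0745 to 0.12). The difference was called for 143 genes without the mouse of double knockout replicate 1, and for 31 to 35 without that of double knockout replicate 3 or of Tgfbr1 KO replicate 1, 3 or 4.

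**Figure D5:**
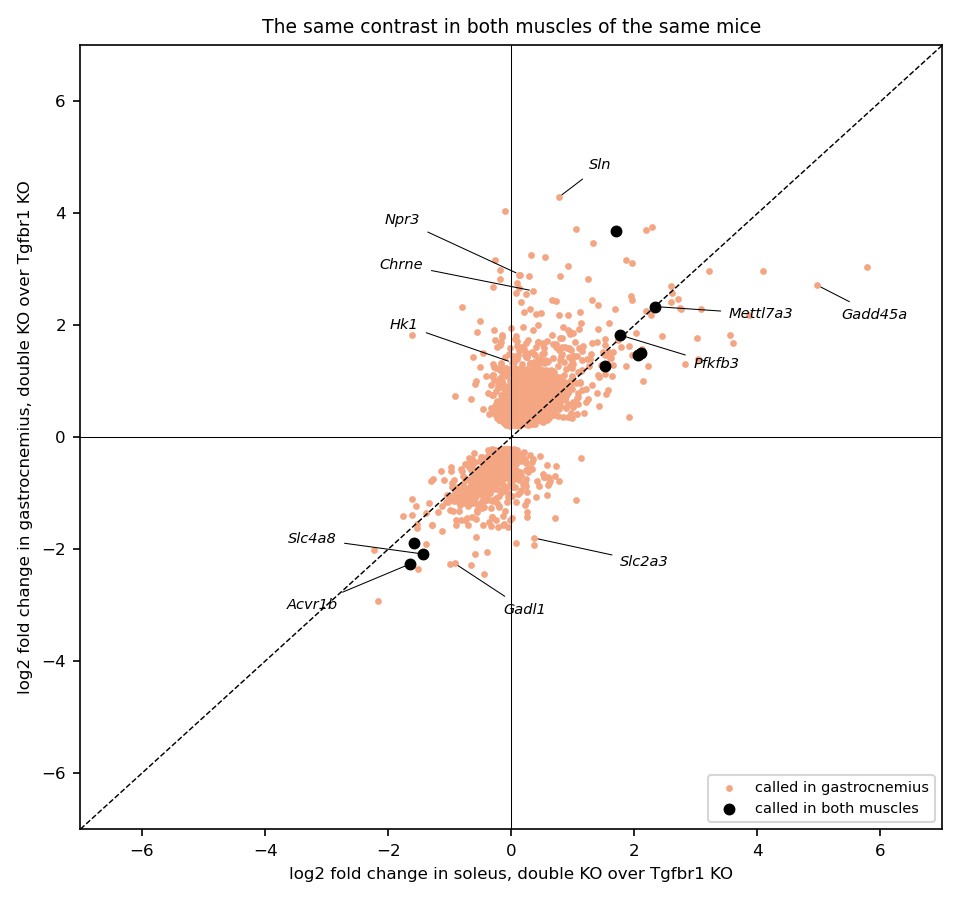
Each point is a gene called in gastrocnemius; the y axis gives its log2 fold change of double knockout over Tgfbr1 KO in gastrocnemius and the x axis that in soleus, with a dashed line of equal change. The 9 genes called in both muscles, in black, have the same sign in both and include Acvr1b and its neighbour Slc4a8. Npr3, Chrne and Hk1 lie near a soleus change of 0 and Sln at 0.77.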

How the data were processed

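RNA of whole gastrocnemius and soleus muscles was sequenced from 16 mice of 4 genotypes, and the 8 gastrocnemius libraries of double knockout and Tgfbr1 KO mice were compared. The labels' protocols give TRIzol extraction and poly(A) libraries from the KAPA mRNA HyperPrep kit. The submitters' processing notes name cutadapt, HISAT2, FastQC 0.11.9, featureCounts 2.0.1, DESeq2 and GRCm38.p6. Per the file headers, the authors deposited estimated counts per gene of Ensembl 102, counted on the reverse strand (setting 2) with multi-mapping reads shared as fractions.

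The deposited estimated counts were rounded to whole numbers, and all 32 value columns were mapped to samples. Symbols came from GENCODE M21, with 55227 of 55487 gene identifiers matched. Genes were filtered with filterByExpr and tested in edgeR 4.0.16 under R 4.3.3, with TMM scaling, a robust quasi-likelihood fit of 16 gastrocnemius libraries with 1 mean per genotype (12 residual degrees of freedom), 2-sided tests and Benjamini-Hochberg adjustment over all genes tested, with a threshold of 0.05. Every adjusted p is from this test. Each SE was computed as the absolute log2 fold change over the root of the F statistic. Soleus libraries had their own fit, and a fit of all 32, without pairing the muscles of a mouse, tested the difference between muscles. On simulated data for 17334 genes the fit called 48 of 48 genes set to a log2 change of −2, 40 of 48 at −1, 37 of 50 at 1 and 50 of 50 at 2.

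The genotype comparison and the 48 gene lists (36 of pathways and 12 of cell markers) were chosen with earlier results of these data known. Lists were described by counts and medians. The text names up to 14 genes higher and 14 lower by size of fold change, among called genes whose higher mean reached 5 CPM and whose groups were fully separate, up to 5 in each direction for the other contrasts, and up to 4 called genes per list. This choice skipped sex-linked genes, immunoglobulin segments and genes without a full symbol. Ache, Actn3, Cd3e, Chrnb1, Chrnd, Colq, Dach2, Erbb2, Etv4 and Etv5 fell outside these rules and were named after their values were seen. Alternatives were RLE scaling, no filter, DESeq2 1.42.0, a replicate block, each library left out, only the compared libraries, and sets of libraries or genes left out. Reads shared by near-identical genes were split as fractions, and 638 called genes held fractional counts in at least 8 of the 16 gastrocnemius libraries. Some genes are not reported here.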

Additional observations from a re-analysis of the deposited data

Results flagged for a closer look

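Among the gastrocnemius values of the genes named or listed, 276 groups of 4 libraries were checked for a library whose gap to its nearest companion exceeded Dixon's 95% critical share of the range of its group. Such a gap was found in 27 groups (9.78%), where the nominal share of the rule is about 5%, and 21 of the 27 were in double knockout replicate 1. Over all 17536 genes tested, replicate 1 of the double knockout was set apart for 5.81%. Each other library of the 2 groups was set apart for 0.513% to 2.1%. Many of the genes checked were chosen on their values in these libraries. Double knockout replicate 1 was the high library for Gadd45a (308 CPM), Ankrd1 (101.62 CPM), Chrna1 (68.8 CPM), Chrnd (8.88 CPM), Myog (13.6 CPM), Myf6 (175 CPM), Kcnn3 (18.2 CPM), Plekhh1 (19.7 CPM) and Krt18 (6.66 CPM). It was also the high one for Slc25a30 (14.98 CPM), Pdlim3 (742 CPM), Foxo1 (117 CPM), Ctsl (209 CPM), Nr4a3 (15.04 CPM), Cd68 (9.56 CPM), Lyz2 (59.98 CPM) and Myh1 (6298 CPM). It was the low one for Smad9 (0.616 CPM), Ache (17.8 CPM), Fgf1 (21.5 CPM) and Vegfa (88.4 CPM).

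The other libraries gave few such values. Double knockout replicate 4 was set apart in Cblb (24.5 CPM). Tgfbr1 KO replicate 4 was set apart in Atoh8 (3.41 CPM), Psme4 (297 CPM) and Chrnb1 (26.2 CPM), replicate 3 in Id3 (1.61 CPM) and replicate 1 in Fkbp5 (162 CPM).

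The change of the double knockout against Tgfbr1 KO differed between the muscles for 15 of the named genes, by the edgeR test of the difference itself (soleus minus gastrocnemius, log2). That test did not pair the muscles of a mouse. The difference was negative for Sln (−3.52), Fam174b (−3.17), Npr3 (−2.76), Srrm4os (−2.67), Uchl1 (−2.58), Chrne (−2.25), Gstt3 (−2.13), Shisal1 (−1.998), Hk1 (−1.31) and Lrtm1 (−1.24). It was positive for Slc2a3 (2.18), Amd2 (1.42), Amd1 (1.41), Spns2 (1.395) and Gadl1 (1.34). Without a single mouse, the difference was not called for Fam174b (without double knockout replicate 2 or 4, adjusted p = 0.0504 to 0.0508) or for Srrm4os (without Tgfbr1 KO replicate 3, adjusted p = 0.0532).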

How the results depend on the processing

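Of 140 genes followed in double knockout against Tgfbr1 KO, 137 were called, 104 of them under every alternative in which they were tested, which was 15 to 17 of 17. The other 33 lost their call under at least 1 alternative, none reversed, and 1 further gene gained a call. The 2255 calls became 2236 with RLE factors, 1773 without a filter, 2510 with DESeq2, 1601 with only the 8 compared libraries, 1900 without both libraries that stood apart, 2230 without mitochondrially encoded genes, 2154 without genes near the targeted loci and 1657 without genes of fractional counts. Leaving out 1 library gave 1521 to 2095. Replicate numbers did not pair the muscles (correlations of same-numbered deviations −0.15 to 0.109), and with the number as a replicate block the calls were 2188 here, 2 in Acvr1b knockout against control, 366 for additivity and 8 in soleus.

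Acvr1b knockout against control called 26 genes with DESeq2, 3 with only its 8 libraries and 3 to 9 with 1 library left out. Additivity gave 728 with DESeq2 and 232 to 548 with 1 library left out. Soleus gave 77 with DESeq2, 2 with only its 8 libraries and 4 to 11 with 1 left out. The difference between muscles gave 114 with DESeq2, 142 with the animal as a replicate block and 31 to 143 with 1 mouse left out. The causes were not tested. Genes under about 1 CPM rest on few reads, most of all in Tgfbr1 KO replicate 1.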

Other observations

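Developmental and cardiac contractile genes held called members in both directions, with 2 higher and 2 lower of 9. Actc1, the cardiac alpha-actin that skeletal muscle uses before birth, had 627, 1620.4, 1242 and 1201 CPM in the double knockout, against 179.8, 264, 231 and 527 CPM in muscles labelled Tgfbr1 KO. The groups did not overlap, and Tgfbr1 KO replicate 4 was the highest of its group (log2 fold change 1.96, SE 0.347, adjusted p = 0.00134). Mybph, a myosin-binding protein, had 248, 379.6, 430.4 and 386 CPM in the double knockout, against 64.8, 44.98, 53.04 and 156 CPM in muscles labelled Tgfbr1 KO, with the same library highest in its group (log2 fold change 2.18, SE 0.372, adjusted p = 0.00104). Myh3, the embryonic myosin, was lower (log2 fold change −0.41) and held fractional counts in all 16 gastrocnemius libraries.

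Of 18 Z-disc and stretch genes 4 were higher and 3 were lower. Mustn1, a small protein of growing and regenerating muscle, averaged 62.3 ± 12.4 CPM in the double knockout and 30.2 ± 5.23 CPM in muscles labelled Tgfbr1 KO (SD, n = 4 each; log2 fold change 1.04, SE 0.185, adjusted p = 0.00136). The LIM proteins Pdlim3 and Pdlim5 were called in opposite directions (log2 fold changes 0.73 and −0.68). Ankrd1, a stretch-induced protein of the sarcomere, had a log2 fold change of 2.18, which was 0.998 and not called without double knockout replicate 1 (adjusted p = 0.0544).

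Of 20 myogenic regulators and satellite-cell genes 4 were higher and 1 was lower (2 without double knockout replicate 1 or 2 or Tgfbr1 KO replicate 1 or 4). Myf6, the myogenic factor of mature fibres, had 175, 81.6, 90.9 and 81.9 CPM in the double knockout, against 38.1, 55.2, 50.1 and 55.04 CPM in muscles labelled Tgfbr1 KO, with no overlap (log2 fold change 1.11, SE 0.213, adjusted p = 0.00262). Without double knockout replicate 1 the log2 fold change of Myf6 was 0.77 (adjusted p = 0.00203). Of 24 transcription factors of slow and fast fibres 1 was higher (0 without double knockout replicate 2, 3 or 4 or Tgfbr1 KO replicate 1 or 3) and 6 were lower (3 without Tgfbr1 KO replicate 3). The TEAD cofactor gene Vgll2 and Tead1 were lower with no overlap (log2 fold changes −0.89 and −0.67). In the stress response and serine synthesis list 1 of 17 was called (2 without double knockout replicate 2), the mitochondrial folate enzyme Mthfd2 (log2 fold change 1.199, SE 0.181, adjusted p = 3.82e-04).

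The remaining lists gave few calls, and their counts moved when single libraries were left out. Of 35 proteasome genes 3 were higher (0 or 1 without double knockout replicate 1 or 3 or Tgfbr1 KO replicate 1, 2 or 3) and 1 was lower (0 without those libraries or double knockout replicate 4). Of 19 circadian clock genes 2 were higher (1 without Tgfbr1 KO replicate 2 or 4) and 1 was lower (2 without Tgfbr1 KO replicate 4). Of 28 collagen and matrix genes 2 were higher (1 without double knockout replicate 4 or Tgfbr1 KO replicate 2 or 4) and 3 were lower (1 without double knockout replicate 3 or Tgfbr1 KO replicate 2 or 3, and 8 without Tgfbr1 KO replicate 4). Of 25 immediate early genes 2 were higher (1 without double knockout replicate 1) and 3 were lower, and of 16 carnosine and polyamine genes 1 was higher (2 without double knockout replicate 2) and 3 were lower. Of 10 myofibre markers 1 was higher (2 without double knockout replicate 1) and 1 was lower (0 without double knockout replicate 3 or Tgfbr1 KO replicate 3, and 2 without double knockout replicate 2).

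Double knockout replicate 1 was also set apart in the soleus of the same mouse. Gadd45a had 903 CPM in that soleus, against 10.4 to 13.1 CPM in the other 3 double-knockout soleus muscles. Ankrd1 had 633 CPM against 7.26 to 9.87 and Myog 52.3 CPM against 2.48 to 2.63. Vegfa was low there, at 55.3 CPM against 219 to 241, and Fgf1 too, at 32.2 CPM against 118 to 129. Over all 17536 genes tested in gastrocnemius, this library was set apart within its group for 5.81%, against 0.513% to 1.56% for the other double knockouts and 0.622% to 2.1% for the Tgfbr1 KO libraries.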
